A study of Mus musculus with 12 samples.

Results

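The genes described here are 9 zinc finger transcription factor genes of 3 families, Zic1, Zic2, Zic4 and Zic5, Sall1, Sall2 and Sall3, and Zfp503 with its paralogue Zfp703. They were chosen by name, with earlier results of these data known. A site of trimethylated lysine 27 of histone H3 (H3K27me3) was taken as theirs if it overlapped the gene body extended by 20 kb on both sides. This gave 48 of the 101389 sites in the list, and the 9 genes were set beside all 21755 protein-coding genes of chromosomes 1 to 19 and X. The mark was measured in iMEF cells, a line of immortalized mouse embryo fibroblasts, by chromatin immunoprecipitation and sequencing (ChIP-seq). In these cells exon 4 of both floxed alleles of the endogenous Ash2l gene was removed with an inducible Cre-ER recombinase, and growth depends on a human ASH2L fused to an FKBP domain and HA tags, introduced with a lentivirus. The compound dTAG-13 directs this fusion protein to degradation, and ASH2L is a core component of COMPASS/KMT2, the enzymes for methylation of lysine 4 on histone H3.

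The 8 H3K27me3 libraries comprised 2 of untreated cells and 2 of each dTAG treatment, of 16 h, 24 h or 48 h. Of the 4 input libraries, 2 were of untreated cells and 2 of the 48 h treatment. All groups share the deletion and the fusion protein. The study names the cells of its ChIP-seq experiments as NG3, which is 1 clone. The deposited list used here gives the chromosome, start and end of sites found over all samples together. It has no value for a single library, so that neither a change with dTAG nor a replicate error could be obtained from it. The read signal behind a site is also unknown. The study reports a separate list of sites that changed significantly at each time point, which was not used here. All statements on these genes are descriptions of where sites lie, and a listed site need not be present in every group.

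H3K27me3 is placed by Polycomb repressive complex 2 and is typical of developmental genes that are silent in a given cell type. At such genes it often covers a CpG island, a stretch rich in CG dinucleotides, and can spread over the neighbouring sequence. The ZIC proteins, related to the GLI factors of Hedgehog signalling, act in the dorsal neural tube, the cerebellum and the left-right axis. Their genes lie in pairs, Zic1 next to Zic4 and Zic2 next to Zic5. SALL proteins are vertebrate relatives of Drosophila spalt, with roles in kidney, limb, ear and brain, and bind the NuRD co-repressor. Zfp503, also called Nolz1, and Zfp703 belong to the NET family, which carries a single zinc finger and represses transcription in striatum, hindbrain and limb.

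Promoter sequences of 300 bases, from 250 bases before to 50 bases after a RefSeq start (GRCm38.p6), were found for 6 of the 9 genes, with 9 entries in all. The promoters below are shown because they differ in the number of CG dinucleotides and in whether a site covers them. They are written 5′ to 3′ on the strand of the gene, and capitals mark each CG.
Zic1, chr9:91365719-91366018, minus strand: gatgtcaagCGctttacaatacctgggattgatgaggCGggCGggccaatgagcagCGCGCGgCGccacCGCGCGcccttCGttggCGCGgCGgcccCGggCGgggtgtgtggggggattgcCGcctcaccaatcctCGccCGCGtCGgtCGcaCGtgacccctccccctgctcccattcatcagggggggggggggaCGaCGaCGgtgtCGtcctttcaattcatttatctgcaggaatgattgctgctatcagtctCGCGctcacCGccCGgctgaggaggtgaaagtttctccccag
Zic4, chr9:91368722-91369021, plus strand: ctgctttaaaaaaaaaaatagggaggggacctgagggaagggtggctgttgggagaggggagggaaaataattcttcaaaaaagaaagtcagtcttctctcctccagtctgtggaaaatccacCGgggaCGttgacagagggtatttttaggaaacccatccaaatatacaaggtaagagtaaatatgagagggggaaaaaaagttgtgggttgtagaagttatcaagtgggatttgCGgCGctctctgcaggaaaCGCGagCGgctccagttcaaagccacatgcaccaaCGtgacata
Sall1 outermost start, chr8:89044113-89044412, minus strand: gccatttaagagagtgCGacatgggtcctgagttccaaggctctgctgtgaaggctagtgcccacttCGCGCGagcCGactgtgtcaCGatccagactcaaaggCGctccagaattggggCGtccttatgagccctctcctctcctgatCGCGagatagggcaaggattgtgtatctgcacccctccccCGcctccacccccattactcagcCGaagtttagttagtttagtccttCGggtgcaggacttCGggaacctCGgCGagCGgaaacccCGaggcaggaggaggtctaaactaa
Sall1 innermost start, chr8:89042813-89043112, minus strand: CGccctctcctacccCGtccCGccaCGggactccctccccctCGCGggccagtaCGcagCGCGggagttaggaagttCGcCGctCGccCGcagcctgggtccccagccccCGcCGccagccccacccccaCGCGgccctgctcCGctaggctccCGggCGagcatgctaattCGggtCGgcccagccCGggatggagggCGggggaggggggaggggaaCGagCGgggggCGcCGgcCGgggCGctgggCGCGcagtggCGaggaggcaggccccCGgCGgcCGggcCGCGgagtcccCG
Sall2 distal start, chr14:52328621-52328920, minus strand: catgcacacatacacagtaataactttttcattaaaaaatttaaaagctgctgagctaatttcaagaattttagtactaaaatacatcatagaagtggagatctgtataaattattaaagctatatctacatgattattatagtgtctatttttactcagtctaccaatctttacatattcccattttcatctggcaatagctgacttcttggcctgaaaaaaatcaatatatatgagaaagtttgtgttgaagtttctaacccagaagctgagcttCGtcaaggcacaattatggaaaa
Sall2 proximal start, chr14:52316274-52316573, minus strand: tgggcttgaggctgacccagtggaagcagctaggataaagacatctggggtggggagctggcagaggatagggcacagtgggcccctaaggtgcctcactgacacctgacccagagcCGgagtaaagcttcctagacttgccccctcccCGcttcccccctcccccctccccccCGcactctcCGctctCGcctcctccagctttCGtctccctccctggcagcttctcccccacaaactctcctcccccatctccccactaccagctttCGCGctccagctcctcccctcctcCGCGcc
Zfp503, chr14:21989552-21989851, minus strand: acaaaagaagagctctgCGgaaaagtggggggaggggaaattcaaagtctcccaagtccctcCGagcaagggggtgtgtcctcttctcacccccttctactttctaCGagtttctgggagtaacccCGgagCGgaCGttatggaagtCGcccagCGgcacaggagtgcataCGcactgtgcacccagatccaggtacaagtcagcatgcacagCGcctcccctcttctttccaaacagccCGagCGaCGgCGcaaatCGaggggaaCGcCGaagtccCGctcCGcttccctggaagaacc

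The 300 bases of Zic1 held 31 CG dinucleotides, and 89.4% of the 32619 RefSeq promoters held fewer. The promoter of Zic4 shown held 8, close to the median of 7 over all promoters, and that of Zic5, not shown, held 15. All 3 of these promoters lay wholly inside a site. The outermost promoter of Sall1, with 18 CG, was also wholly inside, whereas the middle entry with 27 CG had 32 bases in the site and the innermost with 39 CG had none. The innermost Sall1 start was 869 bp from the nearest site. The distal promoter of Sall2 held 1 CG and had a GC content of 30.3%, and all 300 bases of it were in a site. The proximal promoter of Sall2 held 10 CG, and its start was 4642 bp from the nearest site. The single entry of Zfp503, with 19 CG, was wholly inside a site. Counting the 32 bases of the middle Sall1 entry, 7 of these 9 entries overlapped a site, and 18.5% of all RefSeq promoters did. Over all promoters, this share was 16.2% of those with 0 to 4 CG, 23.4% of those with 5 to 9 and 15.6% of those with 20 to 29.

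For 8 of the 9 genes a site was listed within 1 kb of a transcription start site (TSS), as for 26.9% of all protein-coding genes. The exception was Zfp703. A CpG island lay within 1 kb of a TSS in all 9 genes, and a site was there in 26.5% of the 12700 protein-coding genes with such an island. The same 8 genes had at least 1 site in the extended gene, against 61.5% of all genes. The annotation lists 28 distinct starts for the 9 genes, of which 24 were inside a site, against 13.2% of the distinct starts of all protein-coding genes. Of the 28 starts, 12 belong to Zic4 and 3 to Zic1, all at 1 place in the genome, so these starts are not independent. The 4 starts outside were the proximal start of Sall2 and the 3 of Zfp703. This annotation has 1 start for Sall1, so the middle and innermost RefSeq starts of Sall1, also outside a site, are not counted.

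Coverage differed widely between the genes. The share of the extended gene inside sites was 84.5% in Zic2, 84.1% in Sall3, 81.6% in Zic5, 80.0% in Zic4 and 69.5% in Zic1. It was 34.1% in Sall2, 9.73% in Zfp503, 5.75% in Sall1 and 0% in Zfp703. Whether neighbours in this order differ beyond experimental spread could not be determined. The median was 69.5% for the 9 genes and 1.88% for all protein-coding genes. At least 50% of the extended gene was covered in 5 of the 9 genes, namely the 4 Zic genes and Sall3, and in 6.47% of all genes. With a flank of 50 kb Zic4 fell below this mark, at 45.9%. At that flank the order also turned, with Sall3 (70.0%) above Zic2 (60.7%) and Sall1 (31.4%) above Sall2 (21.7%). The partners of a Zic pair share sequence and sites, so these 5 genes stand for 3 places in the genome.

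**Figure D1:**
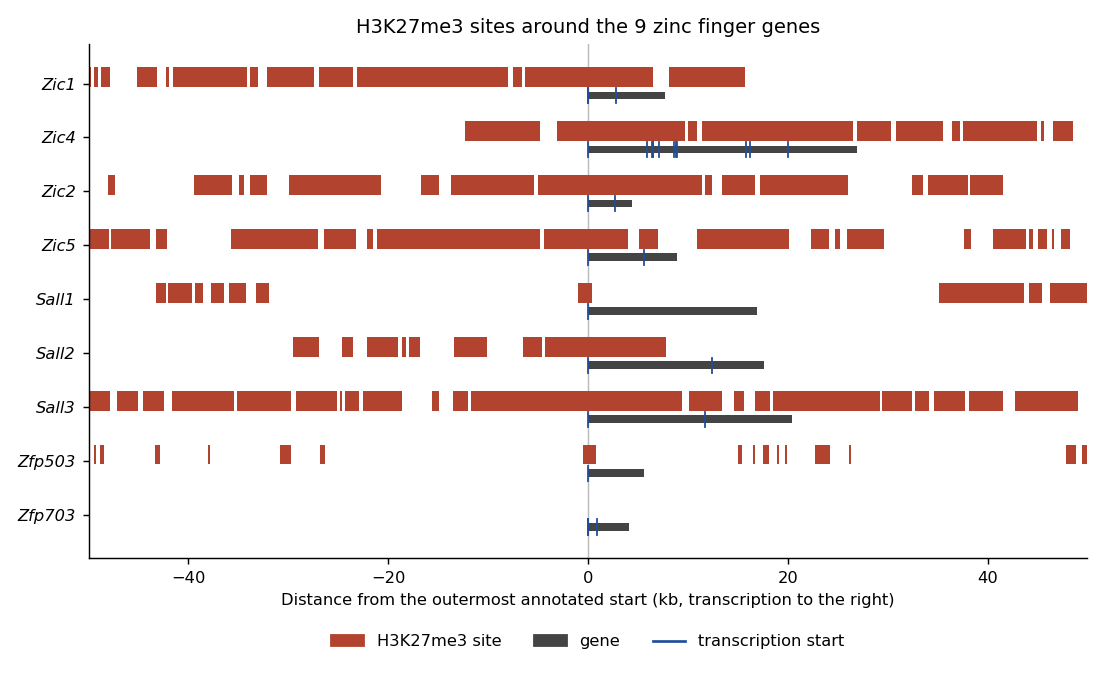
H3K27me3 sites (red) around each of the 9 genes, plotted by distance in kb from the outermost annotated start, with the gene in grey and annotated starts in blue. Sites cover the outermost start of 8 genes but not the proximal start of Sall2, form broad runs at the Zic genes and Sall3, and are missing over the whole plotted range at Zfp703.

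The 48 sites had a median width of 1926 bp and ranged from 206 to 21099 bp, while the median over all 101305 sites of chromosomes 1 to 19 and X was 677 bp. At least 10000 bp wide were 6 of the 48 sites, against 2.35% of all sites. The sites of at least 10000 bp were 2 at Zic1 and Zic4, 1 at Zic2, 1 at Sall2 and 2 at Sall3. At the other end, 7 of the 48 sites were under 500 bp, against 38.5% of all sites. Any overlap with an extended gene was enough for a site to count, which favours wide sites in these comparisons of width. The median GC content was 47.4%, close to the 47.7% of all sites. The median ratio of observed to expected CG was 0.233 against 0.182, and 27.1% of the 48 sites overlapped a CpG island, wholly or in part, against 3.45% of all sites. Wider sites hold more sequence in which an island can fall, so the last comparison is not independent of width. Within the 9 extended genes lay 24 CpG islands, each counted once, and 17 of them had a site, against 26.1% of the 16152 islands found in the genome.

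In genes with a site that close to a start, the widest such site had a median of 3978 bp, and in 21.4% of them it reached 10000 bp. Of the 8 genes, 5 reached that width. The widest site at a start was 21099 bp in Sall3, 16325 bp in Zic2, 15115 bp in Zic4, 12822 bp in Zic1, 12089 bp in Sall2 and 8355 bp in Zic5. It was only 1453 bp in Sall1 and 1285 bp in Zfp503, widths above those of 22.9% and 20.5% of the genes with a site at a start. In this measure Sall2 stood with the Zic genes, although less of the gene was covered.

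**Figure D2:**
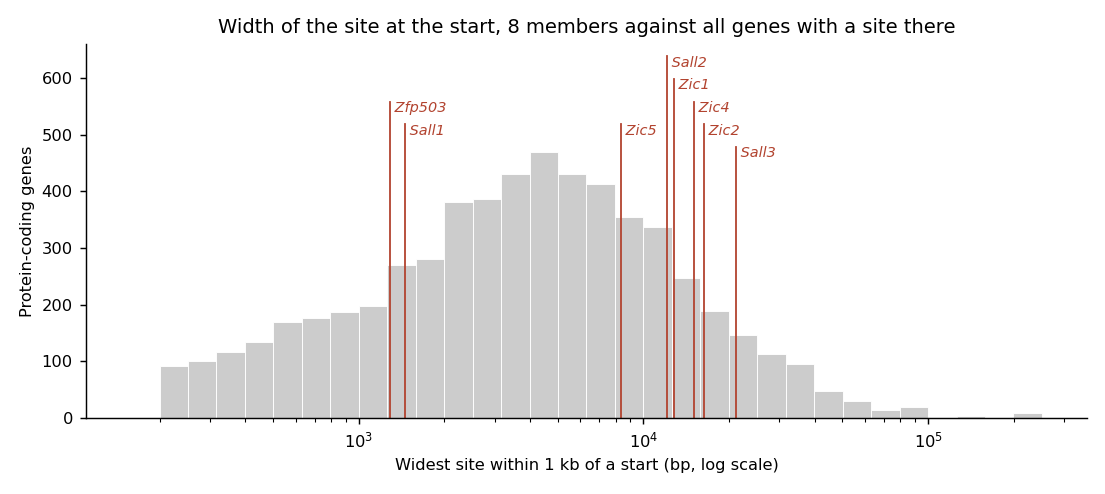
Histogram of the widest H3K27me3 site within 1 kb of a start (bp, log scale) for the 5848 protein-coding genes that have one, with the 8 zinc finger genes as red lines. Zfp503 and Sall1 lie in the lower part of the distribution and the other 6 genes lie above its median of 3978 bp.

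Zic1 (ENSMUSG00000032368) and Zic4 (ENSMUSG00000036972) lie on chromosome 9 on opposite strands, Zic1 at chr9:91358058-91365810 on the minus strand and Zic4 at chr9:91362413-91389348 on the plus strand. One transcript of Zic4 starts inside Zic1, so that the annotated genes overlap by 3398 bp. From 20 kb before the first to 20 kb after the last of both genes, 10 sites covered 53532 of 71291 bp, or 75.1%. All 4 sites of the extended Zic1 gene were also in the extended Zic4 gene. A site of 12822 bp at chr9:91359274-91372095 took in all 3 starts of Zic1 and 9 of the 12 starts of Zic4. The 3 remaining Zic4 starts were inside the next wide site of 15115 bp, at chr9:91373828-91388942, and a site of 830 bp lay between these sites. Both genes thus had every annotated start inside a site.

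Coding sequence was inside sites to 100% in Zic1 and in Zic4. Untranslated and non-coding exon sequence was covered to 72.1% in Zic1 and 89.7% in Zic4, and introns to 100% and 97.9%. Upstream of Zic1, which is the side of Zic4, 95.5% of 20 kb was covered, but downstream only 37.8%. Downstream of Zic1 the last site, 7554 bp wide, ended the run, and the long non-coding gene Gm28652 beyond it had no site within 12500 bp of its start. Downstream of Zic4 the run went on, with 86.1% of 20 kb covered. When sites less than 3000 bp apart were joined, 14 sites formed 1 stretch of 66120 bp at chr9:91350101-91416220, of which 86.3% was inside sites. Its largest inner gap was 2710 bp. All 7 CpG islands of the region were covered over their whole length, among them the island of 1908 bp at the start of Zic1.

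Zic5 (ENSMUSG00000041703) and Zic2 (ENSMUSG00000061524) lie head to head on chromosome 14, Zic5 at chr14:122456795-122465677 on the minus strand and Zic2 at chr14:122475435-122479852 on the plus strand. Their outermost starts are 9758 bp apart, and 95.7% of the sequence between them was inside sites. Over the region of both genes and 20 kb on either side, 10 sites covered 52016 of 63058 bp, or 82.5%. The start of Zic5 was inside a site of 8355 bp at chr14:122461703-122470057. After a gap of 416 bp followed the site of 16325 bp at chr14:122470474-122486798, which held all of Zic2, its 2 starts included. Among the 9 genes, Zic2 alone was covered from end to end.

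In Zic5 the coding sequence was covered to 100% and the untranslated and non-coding exon sequence to 37.0%. A gap of 3964 bp between sites took in the 3′ end of the gene. Beyond it, 4 further sites, the widest of 9207 bp, brought the covered share of the 20 kb downstream of Zic5 to 72.3%. Downstream of Zic2 the share was 89.8%. All 4 CpG islands of the extended Zic2 gene and all 4 of the extended Zic5 gene, 3 of them the same, were covered over their whole length. The protein-coding models Gm5089 and Gm10837 that overlap these extended genes also had a site at their start, as did the non-coding 2610035F20Rik between Zic5 and Zic2.

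**Figure D3:**
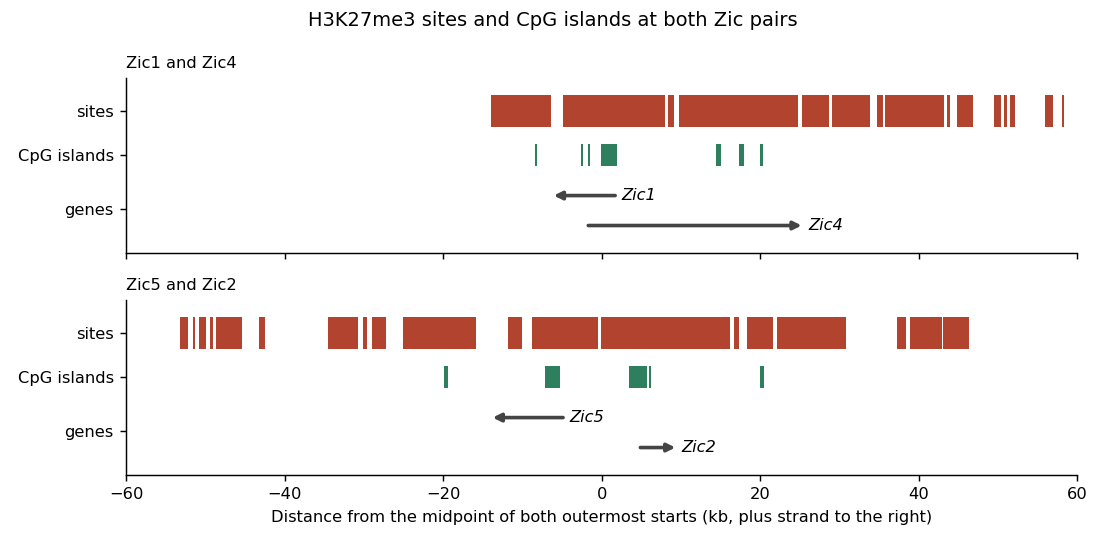
Sites (red), CpG islands (green) and genes (arrows in the direction of transcription) at both Zic pairs, by distance in kb from the midpoint of the outermost starts. At each pair the widest site holds annotated starts and CpG islands, and at Zic1 the run ends on the left soon after the gene.

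Set side by side, the pair of Zic1 and Zic4 had 10 sites and 75.1% coverage, and the pair of Zic2 and Zic5 had 10 sites and 82.5%. The widest site was 15115 bp at the first and 16325 bp at the second. Counting from the first to the last base of the genes alone, 91.9% and 85.0% were covered. The order of the pairs therefore turned with the flank included. For a background, all 2364 pairs of neighbouring protein-coding genes on opposite strands with diverging starts at most 20 kb apart were examined. A site within 1 kb of a start in both genes was found in 12.1% of such pairs, in 1 gene only in 21.8% and in neither in 66.0%. Zic5 and Zic2 are among the pairs with a site at both. Zic1 and Zic4 also had a site at both, but they are not in this set, since the outermost Zic4 start lies within Zic1.

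Sall1, Sall2 and Sall3 differed from each other more than the Zic genes did. Sall3 (ENSMUSG00000024565), at chr18:80966376-80986771 on the minus strand, had 13 sites, the most of the 9 genes. The site at its start was 21099 bp wide, the widest of the 48, and a second site of 10749 bp covered its 3′ end. Coding sequence was inside sites to 67.4%, introns to 85.6%, the 20 kb upstream to 76.2% and the 20 kb downstream to 92.7%. Joined across gaps under 3000 bp, 13 neighbouring sites made a stretch of 64623 bp with a largest gap of 1415 bp, close in length to that of Zic1 and Zic4. In 5 kb steps from 50 kb before to 50 kb after the start, coverage of Sall3 was never under 39.3%, while the mean over all protein-coding genes was between 10.1% and 15.0%.

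Sall1 (ENSMUSG00000031665), mutated in Townes-Brocks syndrome in its human form, lies at chr8:89027235-89044162 on the minus strand and had 2 sites. One, of 1453 bp at chr8:89043731-89045183, took in the start. It covered 71.6% of the bases within 1 kb of the start, 10.3% of untranslated exon sequence, 2.56% of introns and none of the 3969 coding bases. The island at the start is 3338 bp long and runs into the gene, and 615 bp of it, or 18.4%, were inside the site. The other site, of 8577 bp, began 18180 bp after the 3′ end of the gene, and a stretch of 34676 bp without a site separated both. This downstream site is in a region that RefSeq annotates as an enhancer cluster of Sall1, chr8:88986501-89018827. In that region 4 sites covered 20914 of 32327 bp, or 64.7%, and 3 of them, of 3908, 8216 and 1308 bp, are beyond the 20 kb flank. With a flank of 50 kb, coverage of Sall1 was 31.4% in place of 5.75%.

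Sall2 (ENSMUSG00000049532), at chr14:52311172-52328762 on the minus strand, has 2 annotated starts, and only the distal start was covered. A site of 12089 bp at chr14:52320965-52333053 held the distal start and ended 4642 bp before the proximal start. Both starts belong to protein-coding transcripts. Of the 3079 coding bases 73 were inside the site, whereas 58.7% of intron sequence was covered. Upstream, 59.3% of 20 kb was inside 6 sites in all, and downstream none. The nearest site beyond the 3′ end was 159371 bp away. The downstream neighbours Mettl3, the catalytic subunit of the N6-adenosine RNA methyltransferase, and Tox4 had no site within 15837 and 35231 bp of a start. The upstream neighbour Olfr1513, an olfactory receptor gene, had a site at its start and 55.7% of its body covered. Neither of the 2 CpG islands of the extended Sall2 gene, of 266 bp beside the proximal start and of 504 bp at Mettl3, had a site. The covered start of Sall2 was thus 12459 bp from the nearest CpG island.

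Zfp503 (ENSMUSG00000039081), at chr14:21983959-21989601 on the minus strand, had 7 sites that together covered 4441 bp of the extended gene. The site at the start, chr14:21988799-21990083, was 1285 bp wide and covered 64.2% of the bases within 1 kb of the start. It held an island of 568 bp completely and ended before the larger island of 3548 bp over the rest of the gene, of which no base was inside a site. None of the 1956 coding bases was covered. The other 6 sites, of 206 to 1468 bp, lay downstream, the nearest of them separated from the site at the start by 14199 bp. Sall1 and Zfp503 therefore shared an arrangement in which a narrow site covered the start, while the coding sequence had no site and most of the island sequence inside the gene had none.

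Zfp703 (ENSMUSG00000085795), at chr8:26977325-26981461 on the plus strand, had no site in the extended gene. Its 3 distinct starts were 86180 to 87040 bp from the nearest site, at chr8:27064365-27065209, which was 845 bp wide. In 19.4% of protein-coding genes the nearest site was farther from a start than this. On the other side the nearest site was 197118 bp from the gene. Zfp703 was thus in a stretch of 284158 bp without a site, with 2 other protein-coding genes wholly inside. Its start carries an island of 3281 bp, close in length to the island of 3548 bp in Zfp503, and no base of either was in a site. The paralogues differed in the start itself, which was inside a site in Zfp503 and not in Zfp703. No replicate error can be given for this difference, and a stretch without a listed site can hold signal under the threshold of the peak caller.

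**Figure D4:**
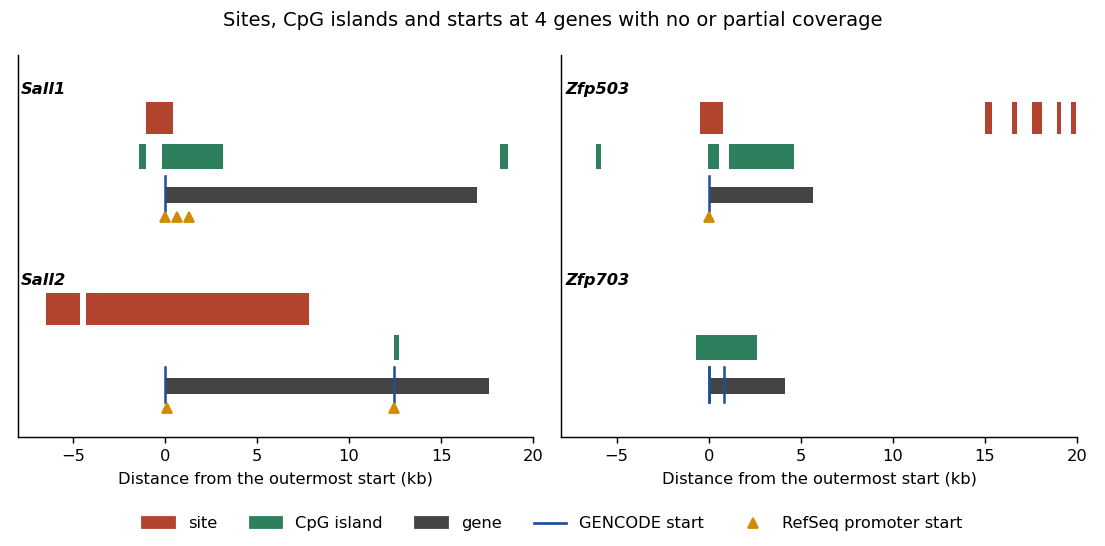
Sites (red), CpG islands (green), genes (grey), GENCODE starts (blue) and RefSeq promoter starts (orange triangles, drawn where RefSeq entries were found) of Sall1, Sall2, Zfp503 and Zfp703, by distance in kb from the outermost start with transcription to the right. The site at Zfp503 holds the island of 568 bp at the start but not the island of 3548 bp, 18.4% of the island at the start of Sall1 is inside a site, the island of 266 bp in Sall2 is outside, and Zfp703 has an island and no site.

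**Figure D5:**
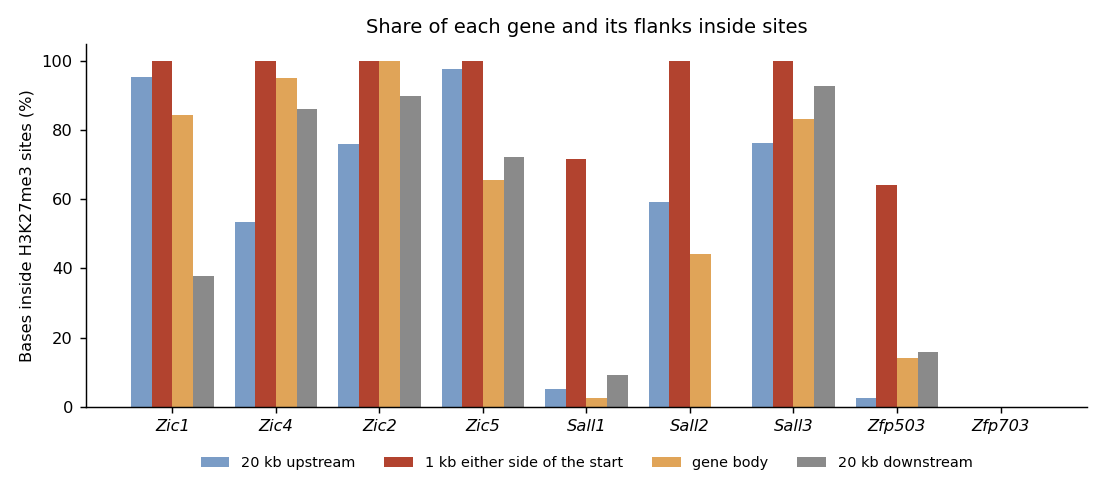
Share of bases inside sites (%) in the 20 kb upstream, within 1 kb on either side of the outermost start, in the gene body and in the 20 kb downstream of each gene. The 4 Zic genes, Sall2 and Sall3 reach 100% around the start, Sall1 71.6% and Zfp503 64.2%, and Zfp703 is at 0% throughout.

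Sall4 on chromosome 2, a further SALL gene that is known from pluripotent cells, had a site at a start. Its extended gene was covered to 67.7%, and the widest site at a start was 18082 bp. Of the 6 GLI and GLIS genes, related to the ZIC genes in their zinc fingers, 2 had a site near a start (33.3%), Gli1 and Gli2, a share near the 26.9% of all protein-coding genes. Gli1 was covered to 53.1%, whereas Gli2 reached 4.43% and its nearest site was 993 bp from a start. Against the same 26.9%, none of the 11 NuRD subunit genes had a site that near a start, and the highest coverage of an extended gene among them was 15.7%, in Hdac1. For comparison, 41 of 365 genes named Zfp with a number, a name given to many unrelated zinc finger genes, had a site at a start, or 11.2%, and their median coverage was 2.39%.

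The label of the cells was set beside marker genes of fibroblasts and of other cell types, as far as a repressive mark can show it. None of 7 fibroblast markers had a site at a start (within 1 kb), Col1a1, Col1a2, Col3a1, Fn1, Vim and Thy1 having none in the extended gene either. A site was present at a start in 3 of 5 neuronal markers, 2 of 3 epithelial, 1 of 3 endothelial and 1 of 3 blood markers. The share over all protein-coding genes was 26.9%, near that of the endothelial and blood markers (33.3% each), and lists this short say little about the label. RNA of the 9 zinc finger genes was not analysed here.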

How the data were processed

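The 12 libraries were H3K27me3 ChIP-seq and input samples of iMEF cells. As the methods state, reads were trimmed (Trim Galore), mapped with BWA to mm10 (GRCm38.p6, GENCODE M25), filtered in samtools and merged over replicates in Picard. The authors called broad peaks with MACS (MACS2 in the submitters' processing notes), with samples brought to the lowest coverage. Versions, cutoffs and the rule for joining peaks over samples are not given in the sources used here. Joining and the caller's minimum width set how wide a site is and where it is split.

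The deposited values used here were positions in 1 pooled list, with 0 columns of single samples, so nothing was tested. The study's separate list of sites changed at each time point was not used. Starts were read as counted from 0 and are printed counted from 1. Genes and starts came from GENCODE M21 (GRCm38), and sites were intersected with Python 3.11.15 and numpy 2.4.6, checked on simulated intervals. CpG islands were sought in repeat-masked GRCm38.p6 by segment scoring (17 per CG, -1 per other base), with at least 200 bp, at least 50% GC and an observed to expected ratio of at least 0.6. The genes and lists were chosen with earlier results of these data known. All 9 genes were named, and other lists were given by counts with some of their genes named. Protein-coding and some non-coding genes overlapping an extended gene were named as neighbours. Of the lists, 1 gene is not reported here. Alternatives were site width, joining, flank, TSS window, transcript type and the overlap required. Scaffolds and chromosome Y were left out of gene comparisons.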

Additional observations from a re-analysis of the deposited data

How the results depend on the processing

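No time point or library could be left out, because the list is pooled, and no paired analysis was possible because the columns carry no replicate. Of the 9 genes, 8 had a site in the extended gene under all 9 alternatives tried for it. For a site within 1 kb of a TSS the count was 8 under 8 of its 9 alternatives, and 6 when the centre of the site had to lie in the window, which removed Zic4 and Sall2 from the count. The number of sites, 48, depended on joining and flank. It was 21 and 12 when sites less than 1000 and 3000 bp apart were merged, and 15, 25 and 95 with flanks of 0, 10 and 50 kb. The median share of the extended gene inside sites was 69.5% and fell to 45.9% with a flank of 50 kb, by construction more distant sequence. Under the other 6 alternatives it was between 65.6% and 80.9%. The study states a target for raw reads per ChIP sample, but the list holds no signal at a site. An absent site says only that none was listed.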
